A study of Mus musculus with 2 samples.

Results

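The chromatin of 6 transcription factor genes of the oligodendrocyte lineage, Olig1, Olig2, Sox10, Nkx2-2, Myrf and Zfp488, was examined in nuclei of sham and stroke mouse brains. The method was single-cell ATAC-seq (scATAC-seq), in which Tn5 transposase cuts open chromatin and each sequenced fragment carries the barcode of its nucleus. These 6 of the 21938 protein-coding genes were chosen by name, and all 6 were found in the gene models. The level of a gene is the number of fragments over its body plus 2 kb upstream per 1000000 fragments of the same nuclei (CPM). The mice were wild-type (WT) C57BL/6J males, young adults, and their brains were taken 48 h after sham surgery or after stroke, made by a passing occlusion of the middle cerebral artery with reperfusion (MCAO/R). Each library was 1 pool of 4 brains, from the ipsilateral hemispheres in stroke and, with no hemisphere named, from brains in sham, so injury and the region sampled cannot be told apart. With 1 library per condition there is no replicate, no test was made, and every interval is an exact 95% interval that covers counting error only.

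Oligodendrocytes, the myelinating cells of the central nervous system, arise from oligodendrocyte precursor cells (OPCs). OLIG1 and OLIG2 are basic helix-loop-helix factors that bind E-boxes, and OLIG2 is needed to specify the lineage. SOX10 is an SRY-related factor present in OPCs and in mature cells, where it activates myelin genes together with MYRF, a membrane-anchored factor that cuts itself free to enter the nucleus and is required for myelination. NKX2-2 is a homeodomain factor known for the timing of differentiation, and ZFP488 is a zinc finger protein that promotes differentiation together with OLIG2.

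Nuclei were placed in classes by marker genes other than the 6. Of 6979 called barcodes in sham and 8740 in stroke, 6817 and 5054 had over 20% of their fragments in peaks and were kept, with median depths of 10356 and 9898 fragments, and 42 barcode sequences were kept in both libraries. The gate, which left most nuclei unassigned, placed 67 sham and 91 stroke nuclei in the oligodendrocyte class and 65 and 59 in the OPC class. It placed 139 and 226 nuclei in the astrocyte class, and 619 and 311 in the glutamatergic and GABAergic neuron classes together. Median depths were 6963 and 5955 fragments in oligodendrocytes, 8138 and 7285 in OPCs, and 12723 and 12119 in neurons. Check markers, kept out of the gate's lists but used in choosing its scoring, describe the classes and are no independent check of them. All 6 oligodendrocyte check markers (Mobp, Tspan2, Gpr37, Enpp2, Gjc3, Trf) lay above the average of all kept nuclei in both libraries, but their summed level was 334 CPM in sham and 754 in stroke oligodendrocytes, which is 2.70 and 5.05 times that average. For the 3 OPC check markers (Lhfpl3, Tnr, Pcdh15) it was 1.87 times the average in sham and 2.09 times in stroke OPCs. The 2 lineage classes overlapped in these markers: the oligodendrocyte check markers were at 1.82 times the average in sham OPCs (5 of 6 above) and 1.53 times in stroke OPCs, and the OPC check markers at 0.824 times in sham and 1.39 times in stroke oligodendrocytes (3 of 3 above). A second assignment, chosen after seeing the data, reassigned nuclei by their whole profile of genes over 200 kb from the 6 (profile classes), and placed 102 and 177 nuclei in the oligodendrocyte class and 102 and 121 in the OPC class, at lower median depths of 2962 to 6129 fragments. Of the gated oligodendrocytes, 14 of 67 in sham and 4 of 91 in stroke had a neuronal profile. By both measures the sham oligodendrocyte class stood out less clearly than the stroke class. Gated OPCs kept their class by profile less often in sham too, 41 of 65 (63.1%) against 47 of 59 in stroke (79.7%). A neuronal profile was found in 8 of the sham and 5 of the stroke OPCs. Values are those of the marker-gated classes unless the profile classes are named.

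The 6 genes were more accessible in oligodendrocytes and OPCs than in neurons, and they differed in how near the astrocyte level came to these 2 classes. Over both libraries, Sox10, Myrf and Zfp488 had their 2 highest levels in oligodendrocytes and OPCs, whereas Olig1, Olig2 and Nkx2-2 were at a similar level in astrocytes. Under the profile assignment Olig2 was instead higher in OPCs, at 54.8 CPM (43.8 to 67.8), than in astrocytes, at 27.0 (23.3 to 31.2), and Nkx2-2 was higher in both lineage classes than in astrocytes. Sox10 in the profile astrocytes, at 16.5 (13.7 to 19.9), lay below both lineage classes but above neurons, at 7.94 (7.22 to 8.71). Levels are sums over each gene's window, so a similar level does not show that the same sites were open. The plot of levels by class shows each value with its interval.

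**Figure D1:**
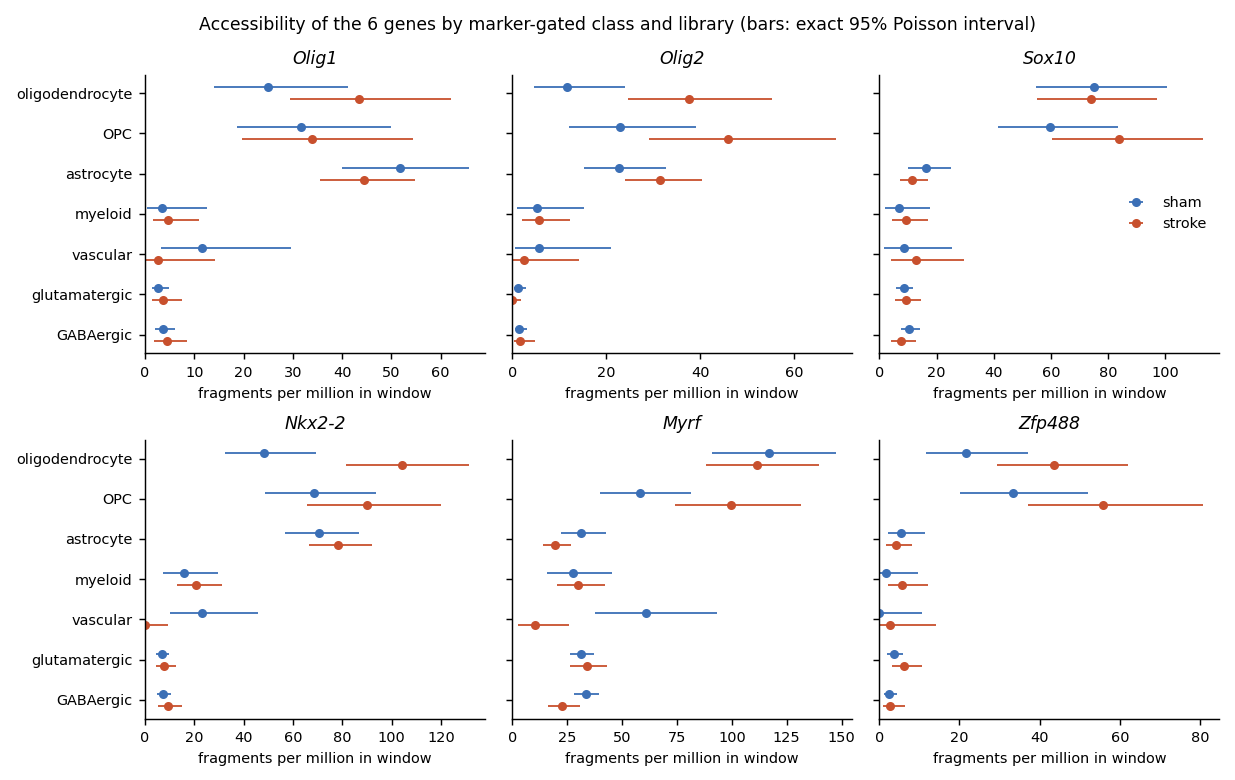
Level in CPM (x axis) over each gene's window in 7 marker-gated classes (y axis), for the sham (blue) and stroke (red) library, with exact 95% Poisson intervals as bars. In both libraries all 6 genes sit higher in oligodendrocytes and OPCs than in neurons, and Olig1, Olig2 and Nkx2-2 are also high in astrocytes.

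Olig1 (ENSMUSG00000046160.6, GRCm38/mm10 chr16:91269772-91271933, plus strand) had 25.04 CPM (14.0 to 41.3) in sham and 43.5 (29.3 to 62.1) in stroke oligodendrocytes. In OPCs the Olig1 level was 31.6 in sham and 33.9 in stroke, and in astrocytes it was 51.7 and 44.4. Neurons had 3.16 in sham and 3.96 in stroke, so in each library all 3 glial classes lay above the neurons with no overlap of intervals. Over both libraries the intervals of astrocytes (40.1 to 55.4), oligodendrocytes (25.5 to 46.7) and OPCs (22.8 to 45.5) overlapped.

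Olig2 (ENSMUSG00000039830.9, chr16:91225457-91228677, plus strand) starts 44.31 kb upstream of Olig1 on the same strand. Its level was 11.7 CPM (4.70 to 24.1) in sham and 37.7 (24.6 to 55.2) in stroke oligodendrocytes, and 22.8 and 45.9 in OPCs. Astrocytes had 22.7 in sham and 31.5 in stroke, while glutamatergic neurons had 5 fragments in sham, a level of 1.21, and 0 in stroke. Beside a count of 0 the limit given here and later is 3 fragments of that total, which is somewhat lower than the upper end of an exact interval, and it was 1.54 here. Per kb of window, Olig2 and Zfp488 had the lowest levels of the 6 in neurons over both libraries, at 0.223 and 0.255 CPM per kb, and 0.272 and 0.230 in the profile classes.

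Sox10 (ENSMUSG00000033006.10, chr15:79154908-79165240, minus strand) was at 75.1 (54.8 to 100.5) in sham and 73.9 (55.0 to 97.2) in stroke oligodendrocytes and at 59.8 and 83.8 in OPCs. The Sox10 level in astrocytes was 16.5 in sham and 11.4 in stroke, nearer to the 9.49 and 8.45 of neurons than to the oligodendrocytes. Over both libraries it was 74.5 (60.3 to 91.0) in oligodendrocytes and 71.0 (56.0 to 88.9) in OPCs, which did not differ beyond their intervals, and every other class lay below both.

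Nkx2-2 (ENSMUSG00000027434.11, chr2:147177546-147194243, minus strand) was at 48.4 (32.4 to 69.5) in sham and 104 (81.7 to 131) in stroke oligodendrocytes and at 68.5 and 89.8 in OPCs. Astrocytes reached 70.5 in sham and 78.4 in stroke, and neurons had 7.06 and 8.45. The 3 glial classes, at 78.5 in OPCs, 78.4 in oligodendrocytes and 75.3 in astrocytes over both libraries, could not be separated. They could be in the profile classes, at 105 (89.6 to 122) in OPCs and 104 (88.7 to 121) in oligodendrocytes against 69.5 (63.4 to 76.0) in astrocytes. At the upstream promoter alone (2 kb before to 500 bases after the first annotated start) the Nkx2-2 level was 14.0 (7.85 to 23.1) in OPCs, 6.98 (3.19 to 13.3) in oligodendrocytes and 4.67 (2.61 to 7.70) in astrocytes, so in all 3 classes most fragments lay outside it.

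Myrf (ENSMUSG00000036098.15, chr19:10208272-10240748, minus strand) was the one gene whose interval in oligodendrocytes lay just above that in OPCs over both libraries, at 114 (96.4 to 134) against 77.6 (61.8 to 96.2), and in the profile classes the intervals overlapped, at 125 (108 to 143) and 99.3 (84.2 to 116). By library it was 117 in sham and 112 in stroke oligodendrocytes and 58.0 and 99.8 in OPCs. Astrocytes held 31.3 in sham and 19.6 in stroke. Neurons held 32.4 and 28.5, the highest level of the 6 genes there, over the longest window, of 34.48 kb.

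Zfp488 (ENSMUSG00000044519.8, chr14:33967070-33978764, minus strand) was at 21.7 (11.6 to 37.1) in sham and 43.5 (29.3 to 62.1) in stroke oligodendrocytes and at 33.4 and 55.9 in OPCs. Astrocytes had 5.48 in sham and 4.13 in stroke and neurons 3.04 and 4.49, so the marker-gated astrocytes could not be told from neurons at Zfp488. Per kb of window, the order in oligodendrocytes over both libraries was Olig1 (8.39 CPM per kb), Sox10 (6.04), Olig2 (4.90), Nkx2-2 (4.19), Myrf (3.31) and Zfp488 (2.44).

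All 6 genes passed the limit over neurons in oligodendrocytes of both libraries, a ratio of at least 2 with an interval above 1. In sham the ratios ran from 3.61 (2.73 to 4.71) for Myrf to 8.73 (2.87 to 24.7) for Olig2, against 5.55% of all genes with 20 or more fragments that passed. Olig2 itself had only 18 fragments over the 2 sham classes and stands outside that background count. In stroke they ran from 3.92 (2.88 to 5.29) for Myrf to 47.6 (14.6 to 246) for Olig2, which rests on 3 neuronal fragments, and 7.26% of all genes passed. In OPCs, 5 of 6 passed in sham, where 6.63% of all genes did, and 6 of 6 in stroke, where 7.27% did. The exception was Myrf in sham OPCs, at 1.79 (1.21 to 2.58), against 3.50 (2.45 to 4.94) in stroke OPCs. In the profile classes it was 2.88 (2.18 to 3.75) and 3.37 (2.68 to 4.20), past the limit in both libraries, where 9.75% and 9.27% of all genes passed. The median log2 ratio over neurons of the members with 20 or more fragments was 2.83 in sham and 3.37 in stroke oligodendrocytes, and 3.30 and 3.36 in OPCs, where the medians of all genes lay between -0.05 and -0.01.

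In astrocytes, 3 of 6 genes passed the same limit over neurons with both libraries summed, where 10.9% of all genes passed. These were Olig2 at 24.0 (13.6 to 45.7), Olig1 at 13.8 (9.75 to 20.1) and Nkx2-2 at 10.0 (7.85 to 12.9). Sox10 was at 1.46 (1.002 to 2.095), Zfp488 at 1.33 (0.687 to 2.46) and Myrf at 0.779 (0.602 to 0.997). Of the markers of the other glial classes in astrocytes, the 10 OPC gate markers were above the average of all kept nuclei, with a summed level of 1.41 times it in sham (9 of 10 markers above) and 1.29 times in stroke (5 of 10). The 16 oligodendrocyte gate markers were at 0.641 and 0.613 times. The summed level of the 6 oligodendrocyte check markers was 0.983 times the average of all kept nuclei in sham and 0.775 times in stroke astrocytes, with Gjc3 at 0 in stroke, and that of the 3 OPC check markers was 0.651 and 0.612 times. Their part in the astrocyte levels was not tested. Sox10 in the profile astrocytes was 2.08 (1.68 to 2.56) times the neuronal level and passed the limit there, and Zfp488 was at 1.82 (1.26 to 2.58). With Sox10, 4 of 6 genes passed in the profile astrocytes, where 12.6% of all genes did.

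Between oligodendrocytes and OPCs, none of the 6 genes passed a ratio of 1.5 in either direction with both libraries summed, where 9.02% of all genes were higher in oligodendrocytes and 10.4% lower. Myrf was nearest, at 1.47 (1.12 to 1.95), and it passed in sham, at 2.02 (1.31 to 3.15), where 10.2% of all genes were higher, but not in stroke, at 1.12 (0.773 to 1.63). Sox10 was at 1.05 (0.768 to 1.44), Olig1 at 1.07 (0.671 to 1.71) and Nkx2-2 at 0.998 (0.740 to 1.35). Olig2 was at 0.761 (0.460 to 1.26) and Zfp488 at 0.759 (0.490 to 1.17). Their intervals reach down to 0.460 and 0.490, so differences larger than these 2 ratios were not excluded at this depth. In the profile classes Olig2 was lower in oligodendrocytes, at 0.549 (0.378 to 0.790), 1 of 6 genes past the limit where 14.5% of all genes were lower, and Myrf was at 1.26 (1.01 to 1.56). By library, 3 of the 6 passed in the sham profile classes, Myrf higher at 1.508 (1.07 to 2.14), and Olig1 at 0.5495 (0.308 to 0.954) and Olig2 at 0.402 (0.206 to 0.747) lower, where 10.5% of all genes were higher and 13.2% lower, and in stroke none did in either assignment, where 9.49% of all genes were higher and 11.4% lower in the gated classes.

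The chromatin around the 6 start sites was then read in shorter windows. Fragments with a cut site were counted in 500 bp windows within 100 kb of each start, and windows within 1 kb of a protein-coding start site were left out. The limits for an open window were 5 or more CPM in oligodendrocytes or OPCs, and cut sites at least 3 times the neuronal level. By these, 29 of 306 windows around Sox10 were open, 22 of 390 around Olig1 and 23 of 390 around Olig2, whose ranges overlap. It was 10 of 359 around Myrf, 6 of 389 around Nkx2-2 and 1 of 354 around Zfp488. Such windows were not counted around other genes, so these counts have no background share. Around Sox10, 10 of the 29 were open in both classes, 16 in oligodendrocytes alone and 3 in OPCs alone. Around Olig2 it was 6, 6 and 11 of 23. Windows open in one class alone by this count can differ by few fragments. No window of this kind around Olig1, Olig2, Sox10, Nkx2-2 or Zfp488 reached 5 CPM in neurons, and 2 of all those around Myrf did.

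**Figure D2:**
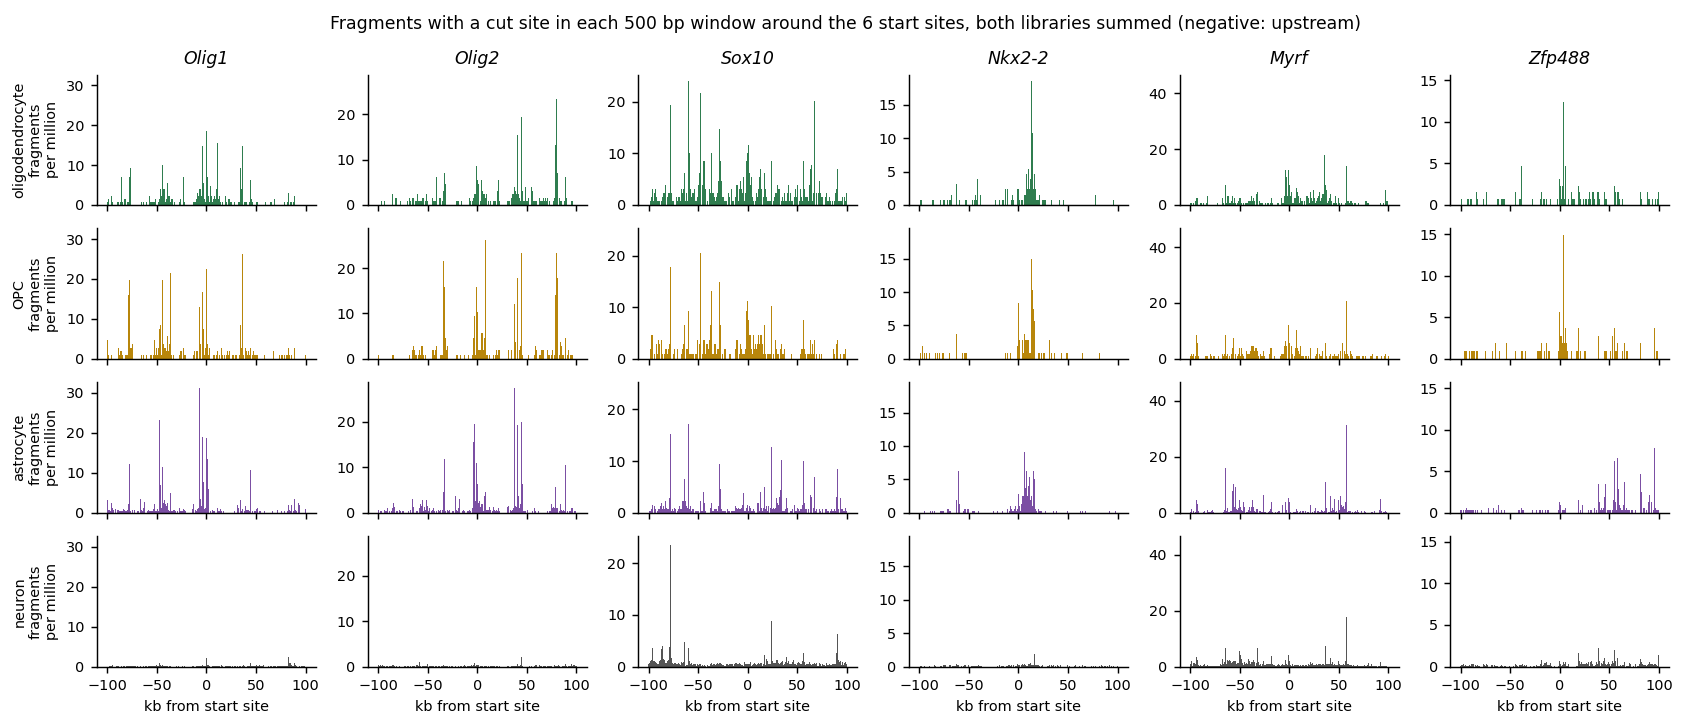
CPM of fragments with a cut site in each 500 bp window (y axis, shared within a gene) by distance from the start site in kb (x axis, upstream negative) for the 6 genes (columns) in oligodendrocytes, OPCs, astrocytes and neurons (rows), both libraries summed, with windows at the starts of other genes included. At Olig2 the window at 8.25 kb holds 26.2 CPM in OPCs and 0.776 in oligodendrocytes, and at Nkx2-2 the window at 13.25 kb is open in both.

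The windows named below were chosen by their values and are described without a test. For each gene, the first given is the one with most cut sites in oligodendrocytes or OPCs under the limits above, and the windows at 10.75 kb and at -6.75 kb from Olig1 were added because one was open in oligodendrocytes and nearly closed in OPCs, and the other was the highest in astrocytes. The 200 most cut bases in or within 100 bases of each window are shown, from RefSeq's GRCm38.p6 on the plus strand, so that the letters behind each class pattern can be read. Capitals mark every match, on either strand, to CANNTG (E-box), ACAAAG or ACAATG (SOX), CACTTNA (NK2) and CTGGCAC or CTGGTAC (Myrf).
Olig1 36.25 kb, chr16:91305702-91305901: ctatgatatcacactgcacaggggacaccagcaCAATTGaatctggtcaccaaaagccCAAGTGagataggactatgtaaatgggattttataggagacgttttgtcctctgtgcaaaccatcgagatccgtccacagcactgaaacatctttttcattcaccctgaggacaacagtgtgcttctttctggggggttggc
Olig2 8.25 kb, chr16:91233557-91233756: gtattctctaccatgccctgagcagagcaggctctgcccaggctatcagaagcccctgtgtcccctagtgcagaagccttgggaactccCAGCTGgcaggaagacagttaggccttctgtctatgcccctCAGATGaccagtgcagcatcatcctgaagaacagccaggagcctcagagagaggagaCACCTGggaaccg
Olig1 10.75 kb, chr16:91280622-91280821: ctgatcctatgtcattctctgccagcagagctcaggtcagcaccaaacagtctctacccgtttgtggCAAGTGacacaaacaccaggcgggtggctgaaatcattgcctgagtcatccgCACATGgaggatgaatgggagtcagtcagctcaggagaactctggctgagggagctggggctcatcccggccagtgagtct
Olig1 -6.75 kb, chr16:91262972-91263171: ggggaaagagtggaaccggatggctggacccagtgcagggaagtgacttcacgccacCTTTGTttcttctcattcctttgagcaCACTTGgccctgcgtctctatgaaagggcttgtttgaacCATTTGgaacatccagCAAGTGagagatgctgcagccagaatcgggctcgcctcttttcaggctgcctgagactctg
Sox10 -59.75 kb, chr15:79224761-79224960: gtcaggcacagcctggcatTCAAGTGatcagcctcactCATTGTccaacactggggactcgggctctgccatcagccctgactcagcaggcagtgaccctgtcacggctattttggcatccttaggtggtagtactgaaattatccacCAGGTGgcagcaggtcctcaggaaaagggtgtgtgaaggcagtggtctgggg
Nkx2-2 13.25 kb, chr2:147180664-147180863: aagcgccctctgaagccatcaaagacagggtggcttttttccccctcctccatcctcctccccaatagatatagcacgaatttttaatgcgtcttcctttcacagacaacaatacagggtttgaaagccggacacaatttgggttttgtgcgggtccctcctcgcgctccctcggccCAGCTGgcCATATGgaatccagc
Myrf -3.75 kb, chr19:10244249-10244448: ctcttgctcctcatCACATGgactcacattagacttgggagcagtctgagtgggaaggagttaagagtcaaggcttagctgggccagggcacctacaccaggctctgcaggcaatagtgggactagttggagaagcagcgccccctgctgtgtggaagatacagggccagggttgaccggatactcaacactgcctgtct
Zfp488 3.75 kb, chr14:33974945-33975144: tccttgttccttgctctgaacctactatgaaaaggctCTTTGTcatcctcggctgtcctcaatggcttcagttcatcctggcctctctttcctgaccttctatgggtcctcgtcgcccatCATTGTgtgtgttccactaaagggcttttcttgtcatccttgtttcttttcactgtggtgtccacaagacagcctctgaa

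At the shared Olig1 and Olig2 locus, 9 of the 22 open windows around Olig1 and 8 of the 23 around Olig2 were also at 5 CPM or more in astrocytes, and the windows below were picked for their differences or height. The window 36.25 kb downstream of the Olig1 start, within the non-coding gene Gm15966, held 14.7 CPM (8.88 to 23.0) in oligodendrocytes and 26.2 (17.4 to 37.8) in OPCs, but 0.933 (0.193 to 2.73) in astrocytes and 0.167 (0.0202 to 0.602) in neurons. By library it was 10.0 in sham and 18.8 in stroke oligodendrocytes, and 26.36 and 25.95 in OPCs. This stretch lies within the ranges of both Olig1 and Olig2.

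The window 8.25 kb downstream of the Olig2 start, in intergenic sequence, held 28 fragments in OPCs, 14 in each library, which is 26.2 CPM. Oligodendrocytes had 1 fragment there, a level of 0.776 (0.0196 to 4.32), astrocytes had 4.67 (2.61 to 7.70) and neurons 0.0833. The OPC level was 33.7 times that in oligodendrocytes (5.58 to 1379), and in the profile classes 12.9 times (4.71 to 49.1).

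The reverse was seen 10.75 kb downstream of the Olig1 start, also within Gm15966, with 15.5 (9.48 to 24.0) in oligodendrocytes, 1.87 (0.226 to 6.75) in OPCs, 1.24 in astrocytes and 0.167 in neurons. Oligodendrocytes held 13 fragments there in sham and 7 in stroke, and OPCs 2 and 0. The ratio was 8.30 (2.02 to 73.2), and 8.10 (2.89 to 31.4) in the profile classes.

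Upstream of Olig1, at -6.75 kb within the non-coding gene Gm37016, the order was another one again. Astrocytes held 31.1 CPM (25.3 to 37.8), with 23.5 in sham and 36.1 in stroke, against 13.1 (7.15 to 22.0) in OPCs, 3.88 (1.26 to 9.05) in oligodendrocytes and 0.167 in neurons. A pair of windows further out, 1.5 kb apart, also differed between the stages. At -78.25 kb from Olig1 OPCs had 15.9 and oligodendrocytes 0.776, and at -76.75 kb oligodendrocytes had 9.31, of which 11 of 12 fragments were from stroke, and OPCs 0, which allows up to 2.80. These differences were smaller in the profile classes, with 18.05 in OPCs and 4.91 in oligodendrocytes at the former, a ratio of 3.67 (1.63 to 9.33), and 11.05 in oligodendrocytes and 3.22 in OPCs at the latter.

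Around Sox10 the most cut window lay at -59.75 kb, within the non-coding gene Gm10863 and 3933 bases from the start of Pick1. It held 24.1 (16.3 to 34.1) in oligodendrocytes, 9.35 (4.48 to 17.2) in OPCs, 17.1 (12.9 to 22.3) in astrocytes and 3.67 (2.66 to 4.92) in neurons, so it was not confined to the lineage. A window at 67.75 kb, in intergenic sequence, had 16.3 (10.1 to 24.9) in oligodendrocytes and 1.87 (0.226 to 6.75) in OPCs, a ratio of 8.72 (2.13 to 76.7), with 8.09 in astrocytes.

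Nkx2-2 had its most cut window at 13.25 kb, in an intron of the annotated gene, with 18.6 (11.9 to 27.7) in oligodendrocytes, 15.0 (8.55 to 24.3) in OPCs, 2.49 (1.07 to 4.90) in astrocytes and 0.0833 in neurons. Of the 6 open windows around Nkx2-2, 1 was also at 5 CPM or more in astrocytes, which had 5 windows at that level. The highest astrocyte window was at 5.75 kb, 1840 bases from the nearest annotated start, with 9.02 (6.04 to 12.96) in astrocytes and 0 fragments in both oligodendrocytes and OPCs, which allows up to 2.33 and 2.80. Profile classes had at this window 9.06 in astrocytes, 0.614 in oligodendrocytes and 0 fragments in OPCs.

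Zfp488 had a single open window, at 3.75 kb in its intron, with 12.4 (7.10 to 20.2) in oligodendrocytes and 15.0 (8.55 to 24.3) in OPCs against 0.311 in astrocytes and 0.4997 in neurons. Stroke held 14 of the 16 oligodendrocyte fragments and 13 of the 16 OPC fragments at this window. In the profile classes the 2 levels were 17.2 and 19.98. Myrf had its most cut window at -3.75 kb, in intergenic sequence, with 12.4 (7.10 to 20.2) in oligodendrocytes, 6.54 (2.63 to 13.5) in OPCs, 3.73 in astrocytes and 2.33 in neurons.

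E-boxes stood in 7 of the 8 printed sequences, all except that of Zfp488, but 68.7% of 2188 windows of 200 bases around the 6 starts and 58.2% of 32851 RefSeq promoters of that length hold one. The form CAGCTG, which also counts as an E-box, stood in those at 8.25 kb from Olig2 and at 13.25 kb from Nkx2-2, and in 11.4% of the 2188 windows. The Zfp488 sequence had ACAAAG and ACAATG, which 15.9% and 10.6% of windows hold. ACAAAG stood also at -6.75 kb from Olig1, and ACAATG and CACTTNA in the Sox10 sequence, where 9.37% of windows hold CACTTNA. Neither Myrf form was present in any of the 8, and 3.25% and 1.74% of windows hold them. These are matches of letters in short windows and say nothing of binding.

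The stroke and sham libraries were then compared within each class. In gated oligodendrocytes, 3 of 6 genes were at least 1.5 times higher in stroke with an interval above 1, and none was lower, where 6.54% of all genes were higher and 11.0% lower. Olig2 was at 3.23 (1.36 to 8.80), from 7 fragments in sham and 26 in stroke, Nkx2-2 at 2.16 (1.38 to 3.44) and Zfp488 at 2.00 (1.01 to 4.19). Olig1 was at 1.74 (0.906 to 3.47), Sox10 at 0.984 (0.646 to 1.503) and Myrf at 0.955 (0.682 to 1.34). In nuclei thinned to 2000 fragments none of the 3 passed, where 4.80% of all genes were higher and 5.89% lower. Intervals were wider there, around ratios of 3.82 (0.464 to 176) for Olig2, 1.74 (0.847 to 3.84) for Nkx2-2 and 4.14 (0.938 to 37.8) for Zfp488. At the promoter alone Olig2 passed, at 3.30 (1.19 to 11.3), as did Olig1, at 2.85 (1.19 to 7.87), where 1.88% of all genes were higher and 4.88% lower. Nkx2-2 was at 1.085 (0.234 to 5.47) and Zfp488 at 1.74 (0.249 to 19.2) there, from 2 to 5 fragments a library. For Nkx2-2 this promoter is that of its first annotated start, and a start further downstream within the gene was not counted as a promoter. With a stricter gate Nkx2-2 passed, at 1.87 (1.10 to 3.26), where 7.53% of all genes were higher, and Olig2 and Zfp488 did not. None passed in the profile classes, where 4.62% of all genes were higher and 9.63% lower. Olig2 was at 1.33 (0.704 to 2.62) there, Nkx2-2 at 1.06 (0.770 to 1.48) and Zfp488 at 1.15 (0.703 to 1.92). The summed oligodendrocyte check markers, 334 in sham and 754 in stroke, moved the same way as the 3 genes, as did the 3 OPC check markers, 571 and 991, while the 16 oligodendrocyte gate markers, which chose these nuclei, were at 1614 and 1784, and the GABAergic gate markers moved the other way, from 214 to 138. Their part in the result was not tested.

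In gated OPCs only Myrf passed, at 1.72 (1.09 to 2.76) and higher in stroke, where 6.06% of all genes were higher and 9.03% lower. Olig2 was at 2.01 (0.976 to 4.32), Zfp488 at 1.67 (0.902 to 3.17), Sox10 at 1.40 (0.872 to 2.27), Nkx2-2 at 1.31 (0.835 to 2.07) and Olig1 at 1.07 (0.520 to 2.21). In the profile classes Myrf was at 1.10 (0.786 to 1.55), and none of the 6 passed, where 4.91% of all genes were higher and 8.84% lower. The 6 oligodendrocyte check markers summed to 225 CPM in sham and 228 in stroke OPCs, while the 16 oligodendrocyte gate markers moved the same way as Myrf, from 394 to 505, or from 1.19 to 1.43 times the average. Their part in the Myrf result was not tested. With markers taken from the odd places of each gate list alone, Myrf turned to 0.961 (0.645 to 1.42).

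In astrocytes none of the 6 passed in either direction, where 7.40% of all genes were higher in stroke and 7.08% lower. Olig1 was at 0.858 (0.616 to 1.20), Olig2 at 1.39 (0.877 to 2.24) and Nkx2-2 at 1.11 (0.852 to 1.46) there. Myrf was at 0.626 (0.391 to 1.001), and in the profile astrocytes at 0.570 (0.427 to 0.757), which passed as lower. It was 1 of 6 genes there, where 4.74% of all genes were lower and 6.74% higher. None of the 6 genes passed the limit between stroke and sham under both assignments in any of these 3 classes, and Myrf in astrocytes, with a ratio under 1 in both, passed in the profile classes.

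**Figure D3:**
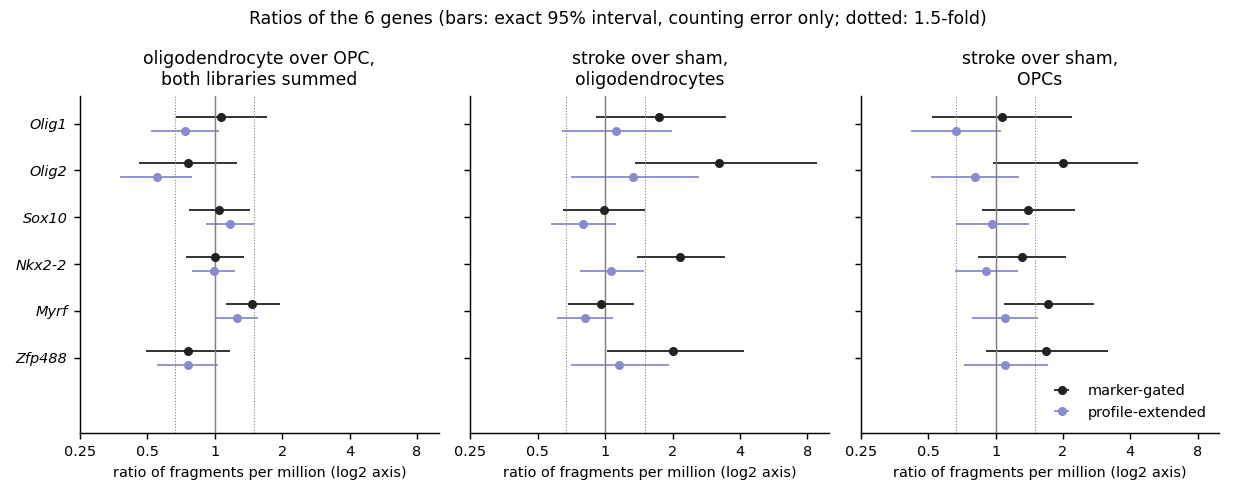
Ratio of levels in CPM (x axis, log2) for the 6 genes (y axis) between oligodendrocytes and OPCs and between stroke and sham in oligodendrocytes and in OPCs, for marker-gated (black) and profile-extended (light violet) classes, with exact 95% intervals as bars. The 3 stroke ratios past 1.5 with an interval above 1 in gated oligodendrocytes (Olig2, Nkx2-2, Zfp488) lie between 1.06 and 1.33 in the profile classes. Olig1 is also past 1.5 in gated oligodendrocytes, with an interval that includes 1.

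Over all kept nuclei of a library, 3 of 6 genes were higher in stroke, where 9.67% of all genes were higher and 0.286% lower. Olig2 was at 3.68 CPM in sham and 6.54 in stroke, a ratio of 1.78 (1.51 to 2.09). Zfp488 was at 4.38 and 7.10, a ratio of 1.62 (1.39 to 1.89), and Nkx2-2 at 12.4 and 19.9, a ratio of 1.61 (1.47 to 1.76). Olig1 was at 6.45 and 8.45, a ratio of 1.31 (1.15 to 1.49), Sox10 at 10.7 and 12.2, a ratio of 1.14 (1.02 to 1.26), and Myrf at 37.7 and 33.9, a ratio of 0.900 (0.847 to 0.955). With all called barcodes kept only Zfp488 passed, at 1.505 (1.31 to 1.73), where 20.7% of all genes were higher, with Olig2 at 1.33 and Nkx2-2 at 1.28. At the promoter alone only Olig2 passed, at 1.85 (1.52 to 2.25), where 7.12% of all genes were higher. Zfp488, at 1.47 (1.05 to 2.06), and Nkx2-2, at 1.40 (1.07 to 1.83), lay under the limit of 1.5 there with intervals above 1. In such sums, more nuclei of a class and more accessibility per nucleus cannot be told apart. Gated oligodendrocytes made up 0.983% (0.763 to 1.25) of kept nuclei in sham and 1.80% (1.45 to 2.21) in stroke, OPCs 0.953% (0.737 to 1.21) and 1.17% (0.890 to 1.503), and astrocytes 2.04% and 4.47%. By profile it was 1.496% (1.22 to 1.81) and 3.502% (3.01 to 4.05) for oligodendrocytes, and 1.496% (1.22 to 1.81) and 2.39% (1.99 to 2.85) for OPCs.

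To compare single nuclei at one depth, each was thinned to 2000 fragments, which left out 9 oligodendrocytes and 3 OPCs, all from sham, and 10 astrocytes. At that depth 52.3% of oligodendrocytes (78 of 149, 44.0 to 60.6) and 47.9% of OPCs (58 of 121, 38.8 to 57.2) had a fragment at 1 or more of the 6 genes, against 31.0% of astrocytes and 8.03% of glutamatergic neurons. By library it was 29 of 58 sham (36.6 to 63.4%) and 49 of 91 stroke oligodendrocytes (43.1 to 64.4%), and 22 of 62 sham (23.7 to 48.7%) and 36 of 59 stroke OPCs (47.4 to 73.45%), so the order of the 2 classes turned between libraries, with overlapping intervals within each library. Fragments at 2 or more of the genes were found in 21.5% of oligodendrocytes, 19.8% of OPCs, 4.51% of astrocytes (16 of 355) and 0.217% of glutamatergic neurons (1 of 461). The share without thinning, over all 158 oligodendrocytes, was 74.7%.

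Gene by gene, over both libraries, the share of oligodendrocytes with a fragment was 21.5% for Nkx2-2, 20.1% for Myrf, 13.4% for Sox10, 10.1% for Zfp488, 8.72% for Olig1 and 4.70% for Olig2. These shares are not scaled to window length, which is 34.48 kb for Myrf and 18.7 for Nkx2-2 but 5.22 for Olig2 and 4.16 for Olig1. Per kb of window the oligodendrocyte level was highest for Olig1, at 8.39 CPM per kb, with Olig2 at 4.90 and Myrf at 3.31. Among glutamatergic neurons, taken as the background, it was 4.77% for Myrf, 1.52% for both Nkx2-2 and Sox10, 0.434% for Olig1, 0.217% for Zfp488 and 0 of 461 for Olig2, which allows up to 0.651%. The share for Zfp488 was 3.45% (2 of 58) in sham and 14.3% (13 of 91) in stroke oligodendrocytes, with intervals of 0.420 to 11.9 and 7.83 to 23.2, and the sham and stroke intervals of all 6 genes overlapped in both classes.

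**Figure D4:**
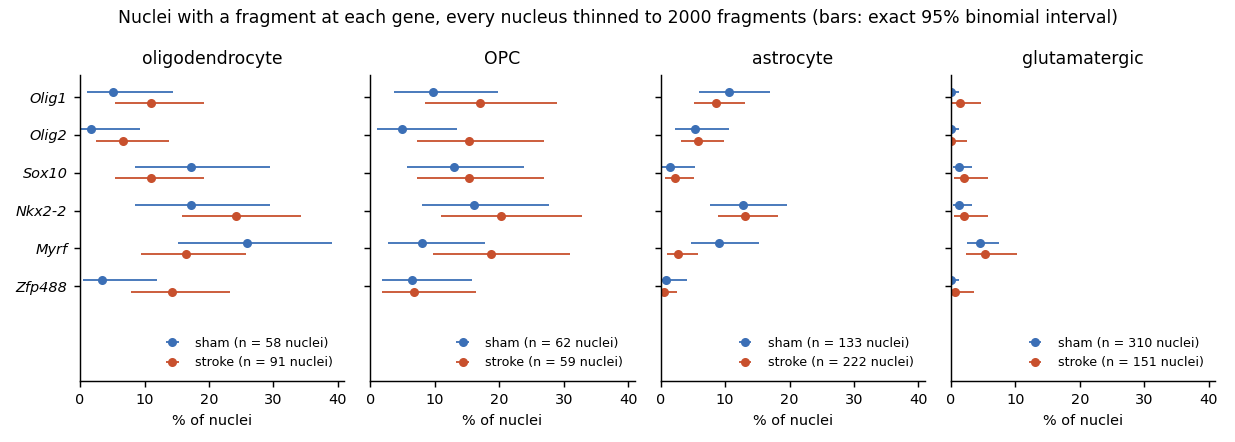
Percent of nuclei with at least 1 fragment (x axis) at each of the 6 genes (y axis) after thinning each nucleus to 2000 fragments, in 4 marker-gated classes for sham (blue) and stroke (red), with exact 95% binomial intervals as bars. Shares are highest for Nkx2-2 and Myrf in oligodendrocytes (21.5% and 20.1% over both libraries) and near 0 for Olig2 in glutamatergic neurons. They are not scaled to window length, and Nkx2-2 and Myrf have the longest windows.

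Other genes of the lineage were read from lists of regulators. Among 10 regulators that promote the lineage, 6 passed the limit over neurons in sham oligodendrocytes (Sox8, Nkx6-2, Tcf7l2, Zfp24, Chd7 and St18) and 5 in stroke, where Zfp24 did not, against 5.55% and 7.26% of all genes, while Tcf7l2 and Chd7 also passed in OPCs of both libraries. Between the lineage stages, 3 of the 10 were higher in oligodendrocytes than in OPCs with both libraries summed, against 9.02% of all genes. St18, a zinc finger gene related to Myt1, was at 2.49 (1.88 to 3.34), Nkx6-2, a homeobox gene of mature oligodendrocytes, at 2.49 (1.27 to 5.26), and Sox8, the SOX10 relative, at 1.94 (1.29 to 2.98). St18 and Nkx6-2 also passed in the profile classes, at 2.96 and 1.74, and Sox8 did not, at 1.44 (1.07 to 1.95). Of 9 genes listed as holding differentiation back, 4 were lower in oligodendrocytes and 1 higher, against 10.4% and 9.02% of all genes, and in the profile classes 7 were lower and 1 higher, against 14.5% and 9.37%. By library, the same 4 were lower in sham, where 9.78% of all genes were, and only Sox6 in stroke, where 11.4% were. The lower ones were Hes5 at 0.286 (0.124 to 0.604) and Hes1 at 0.391 (0.230 to 0.646), both Notch effectors, Sox6 at 0.414 (0.350 to 0.489) and Sox5 at 0.641 (0.561 to 0.733). Tmem98, whose protein binds MYRF and holds back its cleavage, was at 4.91 (2.57 to 10.3). The median log2 ratio was -0.64 for these 9 genes and 0.03 for the 6 members, against -0.01 for all genes. Of 7 genes of newly formed oligodendrocytes, 1 was higher in oligodendrocytes than in OPCs with both libraries summed, against 9.02% of all genes, and none was lower. It was Enpp6, a marker of cells starting to myelinate, at 1.97 (1.35 to 2.93). By library, none was higher and Bcas1 was lower in sham, where 10.2% of all genes were higher and 9.78% lower. In stroke Enpp6 and Tns3 were higher and Itpr2 lower, where 9.49% were higher and 11.4% lower. In stroke against sham oligodendrocytes, 3 of 6 genes of newly formed oligodendrocytes with enough fragments were higher (Enpp6, Tns3 and Bcas1). Of the regulators, 0 of 9 promoting ones and 1 of 8 that hold differentiation back (Sox5) were higher. None of these genes was lower, against 6.54% of all genes higher and 11.0% lower. None of these genes was higher in the profile classes, and Nkx6-2 and Tcf7l2 were lower, at 0.521 (0.288 to 0.937) and 0.653 (0.503 to 0.850), where 4.62% of all genes were higher and 9.63% lower.

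Of 7 relatives of the 6 genes, 4 in sham and 3 in stroke had the 20 fragments needed for a comparison of oligodendrocytes with neurons. Sox8 alone passed as higher, against 5.55% and 7.26% of all genes. It passed the limit over neurons in oligodendrocytes of both libraries, at 63.4 against 28.2 CPM in sham, a ratio of 2.25 (1.55 to 3.18), and 63.8 against 19.8 in stroke, a ratio of 3.22 (2.17 to 4.74). Olig3, Nkx2-1 and Nkx2-4 had 0 fragments in sham oligodendrocytes, which allows up to 5.01 CPM, but Nkx2-1 had 7 fragments in stroke, a level of 10.2. Sox9, a glial factor also found in astrocytes, was at 1.67 in sham oligodendrocytes, from 1 fragment, against 15.8 in neurons, which passed as lower where 4.21% of all genes did, and at 15.9 against 11.9 in stroke, which did not pass, where 9.28% were lower. By profile it was at 0.9496 (0.408 to 1.89) times the neuron level in sham. Myrfl, the closest relative of Myrf, was at 40.1 and 53.6, against 45.02 and 43.03 in neurons.

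The genes most like each member across the 14 levels (7 classes in 2 libraries) were found among 14534 genes by Pearson's r of log2(CPM + 1), given as a description, since classes of a library share its depth. Sox10 was most like Phldb1 (0.932), Gjc3 (0.918), a gap junction gene of myelinating glia, and Sulf2 (0.913). Zfp488 was most like Mroh3 (0.939), Gjc3 (0.926) and Sox10 itself (0.911). Gjc3 is one of the check markers on which the gate's scoring was chosen, so its likeness to both genes is partly built in. Its level was 12.41 CPM in oligodendrocytes and 18.69 in OPCs, but 0.6222 in astrocytes and 0.4165 in neurons, so it was near the floor outside the lineage. Nkx2-2 was most like Fan1 (0.939), Cmtm5 (0.937) and Bpifc (0.929), Olig1 like Dbi (0.935), Fan1 (0.934) and Kiz (0.933), and Olig2 like Kank1 (0.943), Kiz (0.930) and Abtb2 (0.927). Myrf was most like Urm1 (0.902), March8 (0.902) and Lrrn1 (0.888). Between members, r was highest between Olig1 and Olig2 (0.912), Sox10 and Zfp488 (0.911), Olig1 and Nkx2-2 (0.888) and Olig2 and Nkx2-2 (0.834). It was lowest between Olig2 and Myrf (0.499), and 0.652 between Myrf and Zfp488, below the 0.708 between Olig2 and Sox10 and the 0.704 between Olig1 and Sox10.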

How the data were processed

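Per the labels and the methods, the authors aligned the reads to mm10 and called barcodes with Cell Ranger ATAC 2.1.0. The deposited fragment files list each unique fragment with its barcode and read count, and the deposited barcode tables give counts of fragments, of fragments in peaks and the cell call. All levels were computed here from these counts, with no normalization by the authors. Libraries held 76959104 (sham) and 96465679 (stroke) fragments.

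Fragments overlapping each of 21938 GENCODE M21 protein-coding gene windows (body plus 2 kb upstream) were counted once each, in called barcodes with over 20% of fragments in peaks. For each of 7 classes, a nucleus's fragments over the gate markers, each marker weighted down above 20 CPM, were divided by those its depth predicts. A class needed a ratio of at least 4 (2 for glutamatergic and 2.5 for GABAergic neurons), 1.5 times the next class, and 4 markers with a fragment. Nuclei high for 2 classes stayed unassigned and no doublet caller was run. This scoring was chosen after the data were seen, on the check markers, and members, lists and markers were chosen with earlier results of these data known. Profile classes came from 3 rounds of multinomial assignment from the gated classes, without members, lists, check markers and genes within 200 kb of a member.

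Intervals are exact Poisson, binomial and conditional binomial 95% intervals. Fragments are not independent molecules of separate animals. Beyond the 6 genes, the text names genes of the lists and, for each member, the 3 genes with the highest r, without gate genes and with at least 20 fragments in oligodendrocytes and OPCs. Check markers were not left out of that search. Scripts were tested on simulated counts. Alternatives were the promoter alone, cut sites, other barcode filters, fragments in peaks as the scale, stricter, looser and split gates, thinning and the profile classes. Python 3.11.15, numpy 2.4.6, scipy 1.17.1 and pandas 2.3.3 were used.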

Additional observations from a re-analysis of the deposited data

How the results depend on the processing

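No paired analysis was possible because a single library stood for each treatment. Values here are counts of the 6 genes past a limit, with the percentage of all genes past it under the same setting in brackets, and the cause of a changed count was not tested. The counts over neurons, in oligodendrocytes and OPCs of either library, stayed within 1.5 times the reported ones under every alternative run. For stroke over sham in OPCs, 1 gene (Myrf) was higher as reported (6.06% of all genes), 0 at the promoter alone (1.63%) and in the profile classes (4.91%), 2 with the fragment limits of the methods (6.17%), per fragments in peaks (8.75%), with the stricter gate (6.52%) and with odd-listed markers (5.38%), 3 with cut sites (11.2%) and 4 with even-listed markers (5.81%). Myrf there reversed to 0.961 with odd-listed markers. For stroke over sham in oligodendrocytes, 3 were higher as reported (6.54%), 2 (Olig1 and Olig2) at the promoter alone (1.88%) and 1 with the stricter gate (7.53%). It was 0 in the profile classes (4.62%) and 0 in thinned nuclei (4.80%), where Zfp488 had a larger ratio, 4.14, on fewer counts. Over whole libraries 3 were higher as reported (9.67%) and 1 at the promoter alone (7.12%) and with all called barcodes (20.7%). Between oligodendrocytes and OPCs, 0 were higher or lower as reported, while 1 was higher (Myrf) per fragments in peaks (10.2%), with the stricter gate (12.2%) and with even-listed markers (6.28%), and 1 lower (Olig2) with even-listed markers (6.35%) and in the profile classes (14.5%), which were chosen after seeing the data. Without thinning, 74.7% of oligodendrocytes had a fragment at a member, against 52.35% thinned. Of single ratios, 62 of 66 between oligodendrocytes and OPCs lay within the reported interval, 60 of 66 for stroke over sham in either class, between 51 and 54 of 65 or 66 over neurons, and 22 of 36 over whole libraries. With 67 and 91 oligodendrocytes and 65 and 59 OPCs, counting error limits every ratio between libraries.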

Other observations

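In the called barcodes left out for having 20% or fewer of their fragments in peaks, 162 in sham and 3686 in stroke, the 6 genes together had 54.7 CPM (42.9 to 68.8) in sham and 43.8 (41.7 to 46.1) in stroke. Singly in stroke they ran from 2.37 for Olig2 to 17.2 for Myrf.

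Of the vascular nuclei, 30 in sham and 43 in stroke, the sham nuclei had Myrf at 61.0 CPM (37.7 to 93.2) and Nkx2-2 at 23.2 (10.0 to 45.8), while in stroke Myrf was at 10.2 (2.77 to 26.1) and Nkx2-2 at 0, for which the limit of 3 fragments is 7.63. In the profile classes, with 201 and 237 vascular nuclei, Myrf was at 38.4 (25.5 to 55.4) in sham and 11.1 (5.54 to 19.9) in stroke, and Nkx2-2 at 6.85 and 9.08. These values were singled out after they were seen, and no difference was tested.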
